A study of Mus musculus with 6 samples.

Results

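Malat1, Neat1, Bc1, Gas5 and Lncpint are noncoding RNA genes whose RNA levels were measured in cultured mouse spermatogonia after long storage in the frozen state. They were picked by gene name and have 5 of the 32285 gene rows of the count table. Malat1, Bc1 and Lncpint were picked because their Space values had been seen to be higher than their Ground values, so every difference between Space and Ground given for the 5 genes is a description without a test. Germline stem (GS) cells are spermatogonia that proliferate in culture on a feeder layer of mouse embryonic fibroblasts. They had been derived from testes of DBA/2 pups aged 2 to 3 days, with the genotype given as DBA/Tg14(act-EGFP-OsbY01), so that all libraries carry the same EGFP transgene. The cells spent 6 months in a freezer, on the International Space Station (Space, 3 libraries) or on Earth (Ground, 3 libraries), and the study collected them the day after thawing without passage. The series text speaks of biological replicates and the study of separate lines, but no label says which library comes from which line or culture, and the spread between libraries may in part be technical. In each of the 6 libraries the title and the treatment label contradict each other. Groups follow the titles and the column names here, and each direction would turn if the treatment label were right.

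The 5 RNAs act in different compartments of the cell. Malat1 lies in nuclear speckles, the depots of splicing factors, and Neat1 is the scaffold of paraspeckles, nuclear bodies that hold RNA-binding proteins. Bc1 is a short cytoplasmic RNA of rodents made by RNA polymerase III, best known from neurons and also described in male germ cells, where it is bound by proteins that act on translation. Gas5 is the spliced host of small nucleolar RNAs (snoRNAs) that lie in its introns, and its own RNA is degraded by nonsense-mediated decay when it is translated. Lncpint is a long noncoding RNA induced by p53 that has been described to bind the Polycomb complex PRC2. The library kit of the labels selects poly(A) RNA, and the ends of Malat1 and Bc1 are unusual in this regard. Malat1 has no ordinary poly(A) tail, because its end is made by RNase P next to an A-rich stretch encoded in the gene, which folds with a pair of U-rich motifs into a triple helix. Bc1 is not cleaved and polyadenylated like an mRNA either and carries an A-rich stretch of its own.

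The sequences that bear on capture and transcription were read from GENCODE M21 transcripts (GRCm38, the assembly of mm10). For Bc1, the whole transcript of 168 bases is shown, with capitals for matches to the A box (bases 14 to 24) and the B box (bases 57 to 66), the promoter elements inside the gene that RNA polymerase III uses, and for its longest run of A (bases 77 to 99). For Malat1, bases 6564 to 6700 of the transcript of 6983 bases are shown, with capitals for the U-rich motifs (bases 6606 to 6615 and 6646 to 6656) and the A-rich stretch (bases 6674 to 6691).
Bc1: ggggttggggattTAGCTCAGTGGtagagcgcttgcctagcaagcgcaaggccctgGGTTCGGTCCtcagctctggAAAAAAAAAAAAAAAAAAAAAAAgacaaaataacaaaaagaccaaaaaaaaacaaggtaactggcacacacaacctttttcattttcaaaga
Malat1: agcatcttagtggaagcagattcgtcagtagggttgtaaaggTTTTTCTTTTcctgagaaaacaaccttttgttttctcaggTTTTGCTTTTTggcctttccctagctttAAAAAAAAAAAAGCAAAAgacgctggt
The run of A in Bc1 was 23 bases long, and the longest in the Malat1 stretch 12 bases. In Malat1 the annotated transcript goes on for 298 bases after that run. The letters of the A box, TAGCTCAGTGG, occurred on either strand in 20 of 32851 RefSeq promoter windows (GRCm38.p6, 250 bases before to 50 after a gene start), or 0.0609%. The letters of the B box, GGTTCGGTCC, occurred in 14 windows, or 0.0426%. A B box at bases 57 to 66, as in Bc1, lies beyond the 50 bases after the start that a window holds. The B box share is therefore no measure of such elements inside genes. How well these A-rich stretches were captured in each library was not tested. The transcript ends of Neat1, Gas5 and Lncpint were not examined here.

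All 5 genes entered the fit across genes, Lncpint only through its Space libraries, as the filter asked for 0.429 CPM (unscaled) in 3 libraries and none of its Ground libraries reached that. Its place among the tested genes thus already required a higher level in Space. Levels are given as CPM, a gene's counts relative to the size of its library after TMM scaling (a trimmed mean of log ratios between libraries). Differences are log2 fold changes of Space relative to Ground with their standard error (SE) from edgeR. Total counts were 19015985 to 24110916 per library. Mitochondrial genes took 3.09%, 11.5% and 5.69% of the counts in Ground-1, Ground-2 and Ground-3 and 2.51%, 7.12% and 2.81% in Space-1, Space-2 and Space-3. Across the 15104 genes tested, 0 (0%) passed an adjusted p of 0.05 (edgeR quasi-likelihood test, Benjamini-Hochberg), 92 had an unadjusted p under 0.05, and the median log2 fold change was -0.0020. The 3 Space libraries all lay above the 3 Ground libraries for 1.61% of the genes and all below for 1.98%, so that the groups did not overlap for 3.59%. Of the 5 noncoding RNAs, 1, Lncpint, had all Space libraries above all Ground libraries, and none had them all below. Because the values that chose the genes come from this same contrast, that count is a description. In libraries made from whole cultures, fewer cells of a type and less RNA per cell cannot be told apart.

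Malat1 (ENSMUSG00000092341) is a gene of 6983 bases on the minus strand at chr19:5795690-5802672. It measured 119.0, 90.8 and 157.9 CPM in Ground-1, Ground-2 and Ground-3, from 2891, 1705 and 3602 counts. In Space-1, Space-2 and Space-3 it measured 203.1, 187.2 and 133.1 CPM, from 4933, 3513 and 3329 counts. Space-1 and Space-2 lay above every Ground library, whereas Space-3 lay below Ground-3, so the groups overlapped. The mean was 122.6 ± 33.7 CPM in Ground and 174.5 ± 36.7 CPM in Space (SD, n = 3). The log2 fold change was 0.51 (SE 0.22), or 1.42-fold. The value rested in part on Ground-2, the library with the lowest Malat1 level and the largest mitochondrial share, and fell to 0.33 without it. On the log2 scale it was 0.74 without Ground-3. Of the stretches of 50 bases in Malat1 transcripts, 6.24% also occurred in transcripts of other genes (716 genes), and how the counting treated such reads was not stated.

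**Figure D1:**
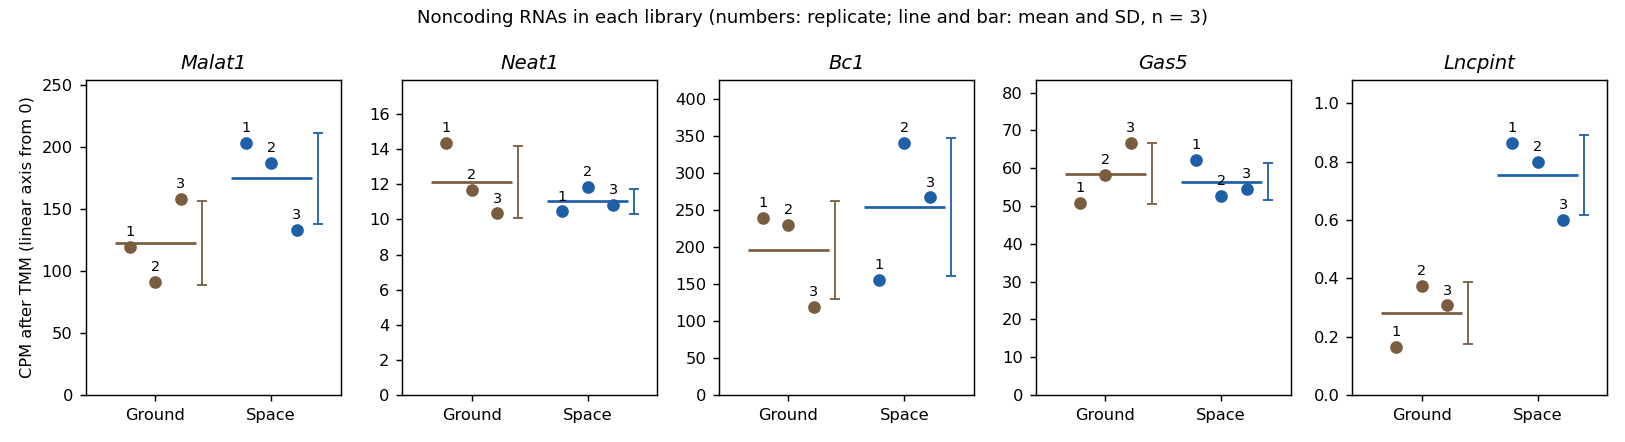
CPM after TMM of the 5 noncoding RNAs in each library, with each panel on its own linear axis from 0. Points are libraries with their replicate number, the horizontal line is the group mean and the bar the SD (n = 3). Ground and Space points overlap for Malat1, Neat1, Bc1 and Gas5, while the 3 Space points of Lncpint (0.600 to 0.865 CPM) lie above its 3 Ground points (0.165 to 0.373 CPM).

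Neat1 (ENSMUSG00000092274) lies next to Malat1 on the same strand, at chr19:5824708-5845478, with 22035 bases between the genes. Its level was 14.4, 11.7 and 10.3 CPM in Ground-1, Ground-2 and Ground-3 (349, 219 and 236 counts) and 10.5, 11.8 and 10.8 CPM in Space-1, Space-2 and Space-3 (254, 222 and 271 counts). All Space libraries lay within the Ground range, and Ground-1 stood highest. The log2 fold change was -0.14 (SE 0.15), and it was 0.0051 without Ground-1. Malat1 and Neat1 thus differed in the order of their libraries. The Malat1 to Neat1 ratio of CPM was 8.28, 7.79 and 15.3 in Ground-1, Ground-2 and Ground-3 and 19.4, 15.8 and 12.3 in Space-1, Space-2 and Space-3, which again placed Space-3 below Ground-3. Frmd8, the protein-coding gene on the other side of Neat1, had 3800, 2661 and 2653 counts in Ground and 2828, 2781 and 3999 counts in Space, and the groups overlapped. Gm37376, which lies within Malat1 on the opposite strand, was not analysed here.

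Bc1 (ENSMUSG00000115783) lies at chr7:144914470-144914637 on the plus strand, 462 bases before the protein-coding gene LTO1. It measured 239.3, 230.0 and 119.3 CPM in Ground-1, Ground-2 and Ground-3, from 5813, 4320 and 2721 counts. In Space-1, Space-2 and Space-3 it measured 155.8, 341.3 and 267.4 CPM, from 3783, 6405 and 6686 counts. Space-2 and Space-3 lay above all Ground libraries, and Space-1 lay below Ground-1 and Ground-2. The mean was 196.2 ± 66.8 CPM in Ground and 254.8 ± 93.4 CPM in Space (SD, n = 3), so the log2 fold change of 0.38 (SE 0.33), or 1.30-fold, was close to its error. Without Space-2 the log2 fold change was 0.11, and without Space-1 it was 0.63.

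Bc1 was low in Ground-3 and in Space-1, a split that crosses the groups. LTO1 had 292, 280 and 276 counts in Ground and 298, 264 and 269 in Space, with no such dip in Ground-3 and Space-1. Ccnd1, which encodes cyclin D1 and lies 15293 bases beyond Bc1 on the opposite strand, had 4364 counts in Ground-3 and 4761 in Space-1 against 2673 to 2815 in the other 4 libraries. The Malat1 to Bc1 ratio of CPM was 1.32 in Ground-3 and 1.30 in Space-1 and 0.497, 0.395, 0.548 and 0.498 in Ground-1, Ground-2, Space-2 and Space-3. Bc1 is the denominator of this ratio, so its split follows in part from the low Bc1 values and is no separate observation. Because Bc1 is so short, its identity in a count table rests on few positions, and 31.1% of its 119 stretches of 50 bases also occurred in transcripts of other genes (Akap5, Elp6, Gm26549, Lrrc17 and Tatdn1). Its counts are therefore uncertain where reads were shared.

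Gas5 (ENSMUSG00000053332) lies at chr1:161034422-161038539 on the plus strand and is annotated with 25 transcripts and 10 snoRNA genes within its span. It had 50.8, 58.2 and 66.7 CPM in Ground-1, Ground-2 and Ground-3 (1233, 1094 and 1522 counts) and 62.1, 52.7 and 54.6 CPM in Space-1, Space-2 and Space-3 (1509, 989 and 1364 counts). The Space libraries lay within the Ground range. The mean was 58.6 ± 7.99 CPM in Ground and 56.5 ± 5.0 CPM in Space (SD, n = 3), with a log2 fold change of -0.052 (SE 0.11) that was 0.058 without Ground-3. The snoRNAs of Gas5 were not analysed here, and these values are the counts assigned to the host gene. The snoRNA genes overlap exons of annotated Gas5 transcripts on the same strand. Of the stretches of 50 bases in Gas5 transcripts, 5.21% also occurred in transcripts under 9 other gene names, and how the counting treated such reads was not stated. Zbtb37, which overlaps the start of Gas5 on the opposite strand without sharing exon bases, had 778, 489 and 609 counts in Ground and 632, 512 and 759 counts in Space.

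Lncpint (ENSMUSG00000044471) spans 137924 bases at chr6:31082565-31220488 on the minus strand, with 16 transcripts that cover 7378 exonic bases. It had 4, 7 and 7 counts in Ground-1, Ground-2 and Ground-3 and 21, 15 and 15 counts in Space-1, Space-2 and Space-3. These are 0.165, 0.373 and 0.307 CPM in Ground and 0.865, 0.799 and 0.600 CPM in Space. All Space libraries lay above all Ground libraries, and the log2 fold change was 1.43 (SE 0.41), or 2.69-fold, between means of 0.281 ± 0.106 and 0.755 ± 0.138 CPM (SD, n = 3). With so few counts, the exact Poisson 95% interval of a count was 2.81 to 14.4 in Ground-2 and in Ground-3 and 8.40 to 24.7 in Space-2 and in Space-3, so that intervals of single libraries overlapped across the groups. Such intervals cover counting error only. The log2 fold change remained between 1.14 (without Ground-1) and 1.66 (without Ground-2) when single libraries were left out. An exon of 2210408F21Rik on the opposite strand overlaps Lncpint, and the strand setting of the counting was not stated, which leaves reads of the overlap uncertain. 2210408F21Rik itself had 44, 28 and 33 counts in Ground and 28, 30 and 52 in Space, and it was the source of the 1.16% of Lncpint stretches of 50 bases found in another gene.

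**Figure D2:**
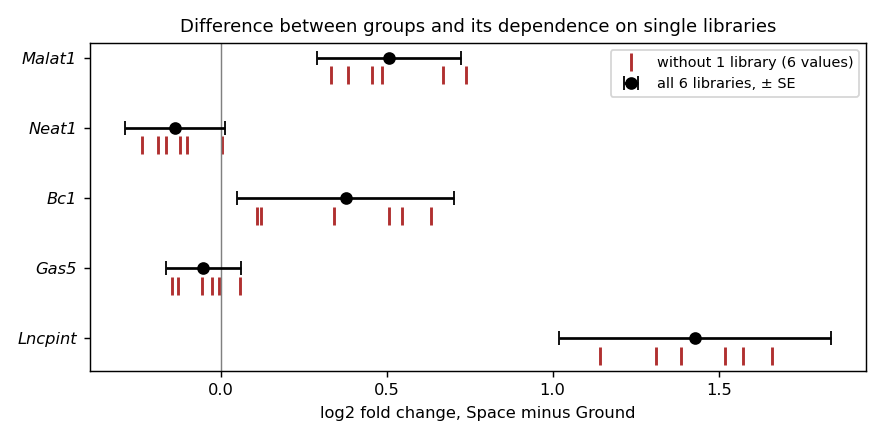
Log2 fold change of Space relative to Ground for the 5 noncoding RNAs. Black points with bars are the value over all 6 libraries ± SE, and red ticks are the 6 values with 1 library left out. Ticks of Malat1, Bc1 and Lncpint all lie above 0, while those of Neat1 and Gas5 lie on both sides of it.

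Each library was most like a library of the other group. From the values alone, with no label behind it, the deviation of log2 CPM from each gene's mean over all 6 libraries correlated highest between Ground-3 and Space-1 (r = 0.47), Ground-1 and Space-3 (r = 0.56) and Ground-2 and Space-2 (r = 0.096) over the tested genes. Set against the Ground library it most resembled, Space-1 had log2 differences of 0.36 for Malat1, 0.38 for Bc1 and 1.27 for Lncpint. The values in Space-2 were 1.04 for Malat1, 0.57 for Bc1 and 0.94 for Lncpint, and those in Space-3 were 0.16, 0.16 and 1.44 in the same order. These 3 genes were higher in each Space library than in the Ground library it most resembled, which 13.1% of all tested genes were as well. They had been picked for higher Space values in these same libraries, so this is a description and adds no support. For Neat1 the differences were 0.016, 0.021 and -0.40 in Space-1, Space-2 and Space-3, and for Gas5 they were -0.10, -0.14 and 0.10.

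Per length, the 5 RNAs covered a very wide range of levels. Bc1 had a mean of 1342 CPM per kb of exon, the highest of the 1091 long noncoding RNA genes tested and rank 9 of all 15104 genes. Malat1 (21.3 CPM per kb, rank 12 of the noncoding genes) and Gas5 (15.3 CPM per kb, rank 18) followed, and their libraries overlapped, with 13.0 to 29.1 CPM per kb for Malat1 and 13.5 to 17.7 CPM per kb for Gas5. Neat1 had 0.558 CPM per kb (rank 666), with libraries between 0.498 and 0.692. It is annotated with 4 transcripts, which the counts do not tell apart, so its level is that of the gene and not of a given transcript. Lncpint had 0.0702 CPM per kb (rank 1086), between 0.0223 and 0.117. Apart from Malat1 and Gas5, no neighbours in this order overlapped in any library. Exon length was the union over all transcripts, which lowers the values of genes with many alternative exons. Gm42418, a gene model over ribosomal RNA sequence, ranked after Bc1 with 485 CPM per kb, and the imprinted RNA H19 had 58.5 CPM per kb.

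**Figure D3:**
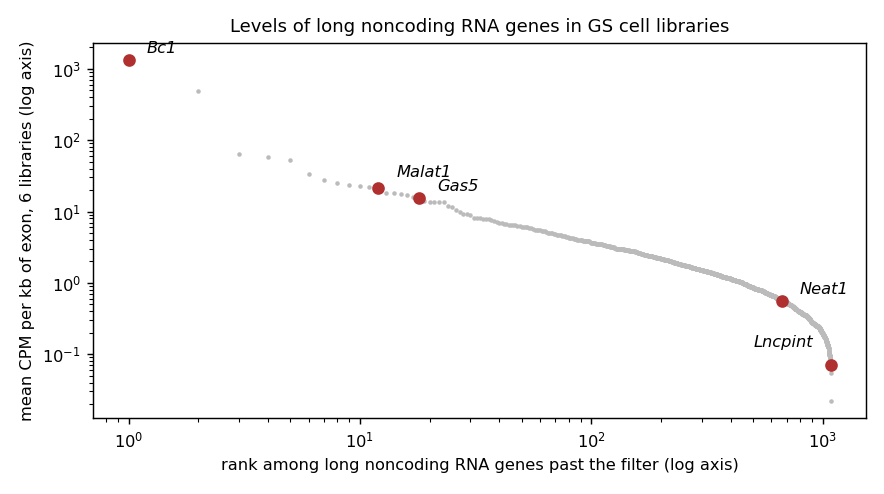
Mean level in CPM per kb of exon over 6 libraries (log axis) against rank (log axis) for the 1091 long noncoding RNA genes tested, in grey, with the 5 noncoding RNAs described in red. Bc1 ranks 1, Malat1 12, Gas5 18, Neat1 666 and Lncpint 1086.

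The spread over all 6 libraries also set the genes apart from each other. The coefficient of variation of CPM was 35.2% for Bc1 and 28.6% for Malat1, against a median of 10.6% over all tested genes, and these values stood at the 89.8 and 83.9 percentiles of all genes. Gas5 (10.6%) and Neat1 (12.9%) were near that median. Lncpint had 54.4%, with a handful of counts per library. These coefficients include the difference between groups for which Malat1, Bc1 and Lncpint were picked, so their places among all genes are descriptions. Highest and lowest library differed 2.86-fold for Bc1, 2.24-fold for Malat1, 1.39-fold for Neat1, 1.31-fold for Gas5 and 5.25-fold for Lncpint. The 5 genes made up 7.0% to 7.85% of all counts on long noncoding RNA genes in Ground and 7.92% to 10.9% in Space. Bc1 alone took 4.43%, 4.45% and 2.35% of those counts in Ground-1, Ground-2 and Ground-3 and 2.85%, 6.24% and 5.0% in Space-1, Space-2 and Space-3. Bc1 and Malat1, which were picked for higher Space values, held most of the share of the 5 genes. The order of the groups in that share thus follows in part from the choice of genes and is a description.

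The other long noncoding RNAs were read as a class beside them. Without the 5 genes, they took 0.477 ± 0.0349% of all counts in Ground and 0.499 ± 0.0154% in Space (SD, n = 3, exact permutation test, 2-sided p = 0.4, with 0.1 as the smallest p of 3 against 3). Gm42418, the gene model over ribosomal RNA sequence, is counted in this class, here and in the shares of the 5 genes above. It had a mean of 888 CPM and a log2 fold change of 0.16 (SE 0.15). Shares without Gm42418 were not computed. Of the other 1086 long noncoding genes tested, 530 had a log2 fold change above 0 and 556 below, with a median of -0.0069. None passed the edgeR test, with 15 of the 1086 at an unadjusted p under 0.05, beside 92 of all 15104 tested genes. All Space libraries lay above all Ground libraries for 36 of them (3.31%) and below for 30 (2.76%). Over all tested genes these shares were lower, at 1.61% and 1.98%. The filter asked for 0.429 CPM (unscaled) in 3 libraries, so a gene near that level could enter through either group alone, as Lncpint did. Entry of such a gene already favoured groups that do not overlap. The class and all tested genes were not matched for level, so these shares are descriptions. Whether the shares of the class would be higher among genes of similar level was not tested.

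For each RNA, the 4 genes with the most similar pattern were found by Pearson's r of log2 CPM over the 6 libraries among 9506 genes with at least 10 CPM. These r are the highest of many, over libraries that share their depth and composition across genes, and stand as descriptions. For Malat1 they were Polr2d and Polr2a, which encode subunits of RNA polymerase II, Tdrd12, which encodes a germ cell Tudor domain protein, and Gm10130 (r = 0.97 to 0.98). Polr2a measured 652, 611 and 663 CPM in Ground and 699, 685 and 650 CPM in Space, the order of libraries of Malat1 except for Space-3 and Ground-1, but within a much narrower range. For Neat1 they were Dnttip1, Gripap1, Aldh7a1 and Timm13 (r = 0.95 to 0.99), and for Bc1 they were Spag1, Gpatch11, Nav2 and Acsl1 (r = 0.99 each). Nav2 shared the dip of Bc1, with 126 CPM in Ground-3 and 134 in Space-1 against 146 to 167 in the other 4 libraries. Gas5 was most like Elmod2, Mrpl50, Crabp2 and Bcs1l (r = 0.993 to 0.998), and Lncpint was most like Pcid2, Pde12, Atg7 and Lgalsl (r = 0.94 to 0.98). The log2 fold changes of these 20 genes lay between -0.10 and 0.16.

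The genes known to work with these RNAs were then read from the same fit, as lists of textbook factors. Of all tested genes, 48.7% had a log2 fold change above 0, and in each list below 0 genes passed the edgeR test in either direction, as among all genes. At an unadjusted p under 0.05 in that test, which 92 of all 15104 tested genes had, there were 4 feeder fibroblast markers and 0 genes of the other lists. Over all lists together that number moved from 4 to 1 without Ground-2, to 2 without Ground-3 or without Space-1, and to 12 without Space-2. For Gas5 the closest list is that of other snoRNA host genes without a protein product, of which 17 of 19 were tested. Of these, 2 had log2 fold changes above 0 and 15 below, with a median of -0.086, from -0.47 (SE 0.28) for Snhg14 to 0.070 (SE 0.12) for Snhg5. Snhg11, the most abundant of the list by counts at 69.8 CPM, had 0.011 (SE 0.12). The 8 factors of nonsense-mediated decay, which acts on Gas5 RNA, had a median of 0.014, from -0.054 for Smg1, the kinase that starts the process, to 0.082 for Upf2.

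For the nuclear body RNAs, 18 nuclear speckle proteins had 5 values above and 13 below 0 with a median of -0.017. They ranged from -0.11 for the splicing kinase Clk4 to 0.055 for Srrm2, the core speckle protein, at 1402 CPM. The 14 paraspeckle proteins had 12 above and 2 below 0, with a median of 0.018, between -0.022 for Nono and 0.073 for Rbm14, and Hnrnpk, at 941 CPM, had 0.0093. The 8 factors that make or degrade nuclear RNA ends had a median of 0.015, from -0.026 for Zcchc8 to 0.082 for the helicase Mtrex, and Xrn2, a nuclear exonuclease, had 0.049 at 266 CPM. None of these values came near the 0.51 (SE 0.22) of Malat1. Malat1 was picked for its higher Space values and these genes were not, so that gap follows in part from the choice.

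For Bc1, all 8 protein partners listed had log2 fold changes above 0, with a median of 0.027, but none exceeded 0.074. They ran from 0.0015 for Eif4a1, a helicase of translation initiation, to 0.074 (SE 0.092) for Purb, and Pabpc1, the poly(A)-binding protein at 1681 CPM, had 0.028 (SE 0.068). The 17 genes of the RNA polymerase III machinery had 10 values above and 7 below 0, with a median of 0.0052, from -0.059 for Polr3k to 0.064 for Polr3g, and Gtf3c1, at 271 CPM, had -0.0024. For Lncpint, the 7 PRC2 subunit genes lay between -0.036 for Ezh2, the methyltransferase, and 0.017 for Suz12, with Rbbp4, at 373 CPM, at -0.00052. Another 24 listed long noncoding RNAs, with gene models such as Gm26917 among them, had 9 values above and 15 below 0 with a median of -0.038. Xist, the RNA of the inactive X chromosome, had the lowest value (-0.41, SE 0.23) and Mirg the highest (0.16, SE 0.51), and Gm26917 had 0.055 at 175 CPM.

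**Figure D4:**
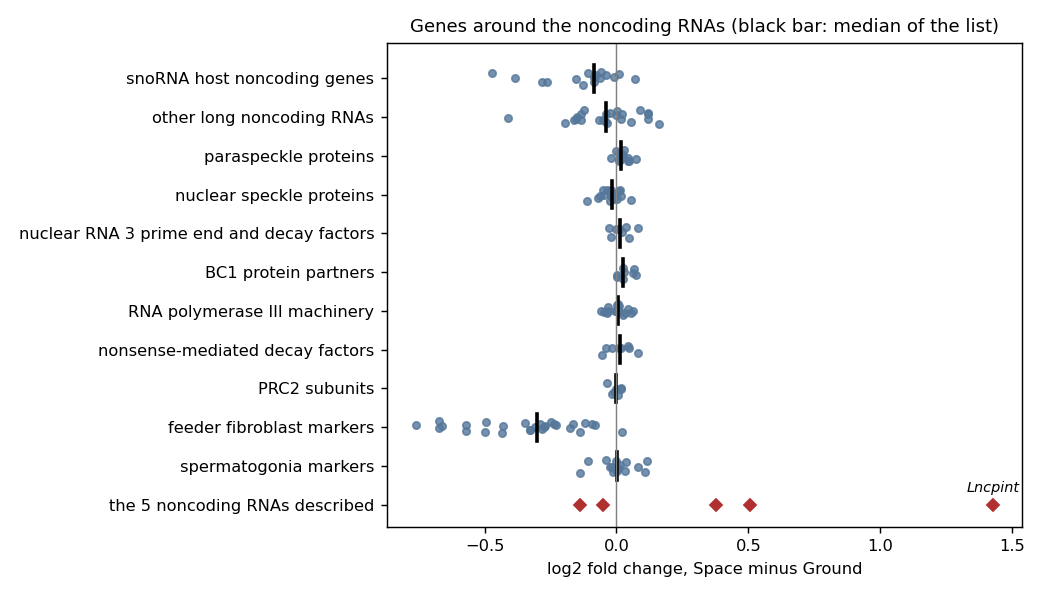
Log2 fold change of Space relative to Ground of the tested genes of each list (blue points) with the list median (black bar), and of the 5 noncoding RNAs (red diamonds, from left to right Neat1, Gas5, Bc1, Malat1 and Lncpint). Medians of the 11 lists drawn lie between -0.086 and 0.027 except for feeder fibroblast markers, at -0.30, and the 3 short lists of macrophage, endothelial and Sertoli cell markers are not drawn.

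Markers of the cells in culture were read beside these values. The spermatogonia markers, 16 of 16 tested, summed to 4328, 4239 and 3975 CPM in Ground-1, Ground-2 and Ground-3. In Space-1, Space-2 and Space-3 they summed to 4023, 4211 and 4351 CPM. Of their log2 fold changes, 8 lay above and 8 below 0, with Id4 lowest (-0.14) and Lhx1 highest (0.12). Dazl, a germ cell RNA-binding protein, had 873 CPM. The sum was lowest in Ground-3 and Space-1, where Bc1 was low too. Bcl6b had 59.1 and 57.6 CPM in these libraries against 218 to 371 CPM in the other 4. Nanos2 went the other way, with 12.1 and 11.4 CPM against 4.78 to 6.39 CPM. The markers were thus not even across libraries, and a link to the Bc1 values was not tested. Of 28 feeder fibroblast markers, 27 had values below 0, none passed the edgeR test, and none was at 0 in all libraries. All Space libraries lay below all Ground libraries for 3 of the 28, as they did for 1.98% of all tested genes. Their median was -0.30, from -0.76 (SE 0.26) for Loxl1 to 0.020 (SE 0.12) for Col5a1, and Fn1, at 431 CPM, had -0.093. They summed to 1230, 1219 and 1190 CPM in Ground-1, Ground-2 and Ground-3 and 938, 1237 and 1109 CPM in Space-1, Space-2 and Space-3. Fn1 and Col5a1, at means of 431 and 272 CPM, made up most of each sum. The order of the libraries by this sum, with Space-2 highest, thus depends heavily on genes that differed less between groups than most of the list. Malat1 was high in Space-1, with the lowest fibroblast sum, and in Space-2, with the highest. Bc1 was low in the former and high in the latter. The part of fibroblast RNA in either difference was not tested. Macrophage markers summed to 14.1 to 22.6 CPM in Ground and 17.3 to 21.9 CPM in Space with 2 of 6 tested and C1qa at 0, endothelial markers to 12.1 to 22 and 11.5 to 20.5 CPM with 4 of 5 tested, and Sertoli cell markers to 24.6 to 28.2 and 25.7 to 27.4 CPM with 4 of 6 tested. The median log2 fold changes of these 3 lists were 0.25, -0.075 and 0.26, over 2, 4 and 4 genes.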

How the data were processed

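Poly(A) RNA was measured in 6 GS cell libraries. The values are raw counts, deposited by the authors as whole numbers per gene without normalization or pooling. The submitters' processing notes name bcl2fastq 2.20, cutadapt 4.1, HISAT2 2.2.1, HTSeq 2.0.2 and mm10, and the methods of the study name GENCODE M21. The counting strand was not given in the sources used here. Labels and methods name different stranded mRNA kits, sequencers and read layouts. That release held 32235 of the gene identifiers, and long noncoding genes were taken from its gene types after leaving out 76 that RefSeq lists as protein-coding.

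Counts of all genes past filterByExpr were fitted with edgeR 4.0.16 in R 4.3.3 (TMM, quasi-likelihood F test on group, 2-sided, Benjamini-Hochberg threshold 0.05), with a prior count of 2 for log2 CPM. The SE is the log2 fold change divided by the square root of F. Alternatives used DESeq2 1.42.0, limma-voom 3.58.1, other scalings and filters, a replicate block, and each library left out. Figures used matplotlib 3.10.9.

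The genes described and the lists were chosen with earlier results of these data known. Named were the 5 genes, their neighbours or overlapping genes (not all are reported here), the 4 genes of most similar pattern (mean of at least 10 CPM), and in each list the genes with the highest and lowest log2 fold change and the highest mean CPM. Long noncoding genes named for their level, Gm42418 and H19, were chosen after their values were seen. So were the defining marker C1qa and the spermatogonia markers Bcl6b and Nanos2. A listed symbol with more than 1 row (Snhg4) stands for the row with the most counts. Snhg7, Nespas and Cytor were not analysed here.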

Additional observations from a re-analysis of the deposited data

How the results depend on the processing

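Under all 14 alternatives 0 genes passed the edgeR, DESeq2 or limma threshold, with 45 (DESeq2) to 192 (no filter) genes at an unadjusted p under 0.05, and 0 genes of the context lists passed. Of the 5 noncoding RNAs, 3 had a log2 fold change above 0, and 3 to 4 when single libraries were left out. The 3 are Malat1, Bc1 and Lncpint, which were picked for higher Space values. Their number was thus set by the choice of genes, and refits of the same libraries add no support to it. Neat1 turned to 0.0051 without Ground-1 and Gas5 to 0.058 without Ground-3. Other scalings, filters, tools and the block gave 0.51 to 0.53 for Malat1, 0.37 to 0.41 for Bc1, 1.42 to 1.47 for Lncpint, -0.14 to -0.11 for Neat1 and -0.052 to -0.014 for Gas5. Leaving out single libraries moved Malat1 between 0.33 and 0.74, Bc1 between 0.11 and 0.63, and Lncpint between 1.14 and 1.66. Replicate numbers gave no pairing, since the deviations of same-numbered libraries from the mean of their own group correlated at -0.54, 0.33 and -0.61 and 2 of 6 libraries correlated best with their own number. With the replicate number as a block, 0 genes passed (63 at an unadjusted p under 0.05), and the same 3 of the 5 noncoding RNAs were above 0. At an unadjusted p under 0.05, the context lists held 4 genes, and 2 with the block. Depth limits Lncpint most, with 4 to 21 counts per library.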
